A study of Homo sapiens with 4 samples.

Results

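This report describes 59 genes of DNA replication and deoxynucleotide supply in K562, a human line of chronic myelogenous leukaemia cells that carries the BCR-ABL1 fusion. The genes were taken by name: origin licensing and helicase genes, origin firing and fork genes, polymerases, the clamp and its loader, single-strand binding and Okazaki fragment genes, enzymes of deoxynucleotide synthesis, and chromatin assembly genes. All 59 were among the 11213 gene names of the deposited table, and all 59 were among the 10972 genes tested, which had a mean of at least 1 TPM (transcripts per 1000000, a length-corrected share of all transcripts listed). RNA was sequenced from 2 shPHF8 libraries, of cells transduced with lentivirus carrying a hairpin against PHF8, and from 2 shControl libraries, of cells transduced with a control hairpin and labelled WT. In both groups 5 µg/ml polybrene was present at transduction, and cells were selected with 2 µg/ml puromycin after 72 hours. The protocol names a single PHF8 hairpin while the knockdown titles are numbered 1 and 2, so the labels do not settle whether those libraries hold replicates of 1 hairpin or different hairpins. The labels do not state separate cultures for the libraries of a group, and the p-values here therefore measure only the spread between these samples, which may be technical.

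A chromosome is copied once per cell cycle because loading of the replicative helicase and its activation are kept apart in time. In G1 the origin recognition complex (ORC), CDC6 and CDT1 load the MCM2 to MCM7 hexamer onto DNA, and geminin (GMNN) later blocks CDT1. At the start of S phase the kinase CDC7 with DBF4, and cyclin E with its kinase, bring CDC45 and the GINS complex to the hexamer, and polymerases with the PCNA clamp then copy both strands from deoxynucleotides made by ribonucleotide reductase and thymidylate enzymes. Many of these genes are known targets of E2F transcription factors. PHF8 is a histone demethylase with a known role at promoters of active genes, cell cycle genes among them.

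PHF8 itself had 6.06 and 6.42 TPM in the shPHF8 libraries, against 25.9 and 22.5 TPM in the shControl libraries; it was lower in both libraries labelled shPHF8, and its mean was 0.258 times that of the controls. The number of reads behind a TPM is unknown, so no counting error can be given. The 2 shPHF8 libraries differed from each other by more than 2-fold in 5.48% of the genes tested, and the 2 shControl libraries in 5.93%, on the scale of log2(TPM + 1). Transcripts of the mitochondrial genome summed to 133379 and 135214 TPM in the shPHF8 libraries, against 133551 and 135084 TPM in the shControl libraries. All 10 genes of an erythroid K562 list were expressed, with sums of 13944 and 13280.2 TPM in the shPHF8 libraries, against 8867 and 9432 TPM in the shControl libraries. Most of each sum came from HBG1, HBG2 and HBE1. Of the 10 genes, 8 were higher and 2 lower without overlap, against 26% and 29.3% of all genes tested. GATA1 was lower, with 311 and 307 TPM in shPHF8 and 339 and 343 TPM in shControl libraries. NFE2 was also lower, with 162 and 149 TPM in shPHF8 and 173 and 196 TPM in shControl libraries. Of 11 lymphocyte markers 3 were listed, with sums of 107 and 100.4 TPM in the shPHF8 libraries, against 239.8 and 204 TPM in the shControl libraries, mostly PTPRC, the common leukocyte antigen, while the B cell markers MS4A1, CD79A and CD79B and the T cell markers CD3E and CD3G were not listed. Of 9 stromal markers 3 were listed, with sums of 13.1 and 7.46 TPM in the shPHF8 libraries, against 26.7 and 38.5 TPM in the shControl libraries, while COL3A1, PDGFRB and DCN were not listed. Of those listed, COL1A2 and FN1 were lower in both shPHF8 libraries. COL1A1 overlapped, with 1.63 and 0.866 TPM in shPHF8 and 0.505 and 1.42 TPM in shControl libraries. Of 13 granulocyte and monocyte markers 6 were listed, with sums of 83.4 and 78.1 TPM in the shPHF8 libraries, against 145 and 164 TPM in the shControl libraries. All 6 were lower without overlap, against 29.3% of all genes tested. Among them ITGAM, S100A9 and FCGR1A were below 1 TPM in both shPHF8 libraries. The erythroid, lymphocyte, stromal and myeloid sums did not overlap between the groups, and their part in the results below was not tested. In bulk RNA, a larger share of cells in S phase and more RNA of these genes per cell cannot be told apart.

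Most replication and nucleotide genes were modestly higher in the shPHF8 libraries, and none passed the test over all genes. Differences are given as log2 fold changes of shPHF8 over shControl, taken on log2(TPM + 1) values, each with the standard error (SE) that limma estimated. Of the 59 genes, 52 had a log2 fold change above 0, as did 48% of all 10972 genes tested. The median was 0.22 over the 59 genes and -0.02 over all genes tested. Both shPHF8 libraries lay above both shControl libraries in 40 of the 59 genes (67.8%), against 26% of all genes tested, and below both in 4, against 29.3%. The 4 were ORC4, ORC5, GINS1 and RPA2, and the groups overlapped in 15. At an unadjusted limma p under 0.05, 16 of the 59 (27.1%) were higher and 0 were lower, against 9.9% higher and 12.1% lower among all genes tested. Over all genes, limma with Benjamini-Hochberg adjustment at 0.05 called 0 of the 59, and 0% of all genes in either direction; the smallest adjusted p among the 59 was 0.0691, for MCM6. The number higher was 10 of the 59 without shPHF8 replicate 1, where 5.89% of all genes were higher, and 7 without shPHF8 replicate 2, where 5.4% were. Of the 16 genes, 6 kept an unadjusted p under 0.05 without any 1 of the 4 libraries: MCM6, MCM7, CLSPN, POLD3, RFC2 and RRM2. Of these 6, RFC2 and RRM2 had an unadjusted limma p of 0.097 and 0.22 with only the most abundant transcript of each gene. All 59 genes had a mean above 15 TPM, and among the 7548 genes at or above that level the background was 11.7% higher by unadjusted p, 28.5% with both shPHF8 libraries above both controls and 50.3% with a log2 fold change above 0.

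**Figure D1:**
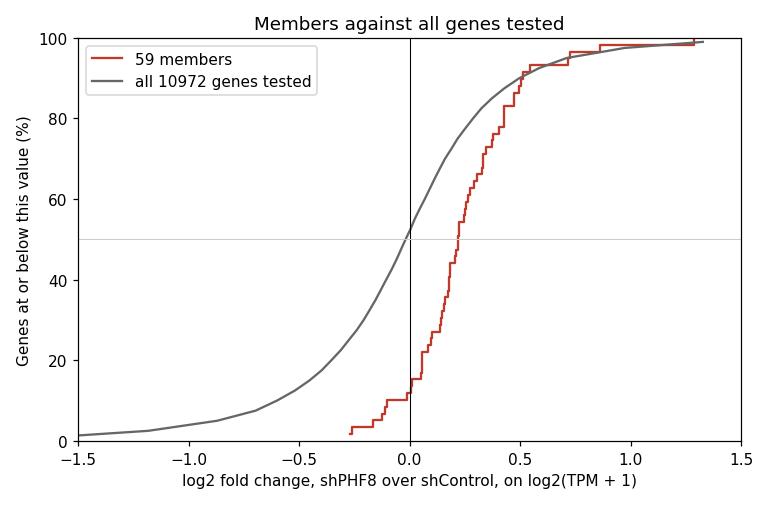
Cumulative distribution of log2 fold changes (shPHF8 over shControl, log2(TPM + 1) scale, x axis) as the percentage of genes at or below each value (y axis), for the 59 replication and nucleotide genes in red and all 10972 genes tested in grey. The red line lies right of the grey one through the middle of the range, with medians of 0.22 and -0.02, and the lines meet above about 0.5.

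The upper end of the distribution was not where the 59 genes stood apart. A log2 fold change above 0.5 was found in 7 of them, close to the 9.85% of all genes tested. The lower end differed more: the 10th percentile was -0.03 over the 59 genes and -0.60 over all genes tested, and the lowest of the 59 was GINS1 at -0.27. The median level was 97.2 TPM over the 59 genes and 29.5 TPM over all genes tested. These percentiles were not compared among genes of like level. Summed over the 59 genes, the abundance was 7409 and 7517 TPM in the shPHF8 libraries, against 6590.5 and 6135 TPM in the shControl libraries. The median absolute difference between replicates over the 59 genes was 0.11 for shPHF8 and 0.14 for shControl, and the median absolute difference between the groups was 0.22.

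Promoter sequences of 52 of the 59 genes were found in RefSeq (GRCh38.p14), as windows from 250 bases before to 50 bases after the start. They were searched on both strands for the E2F words TTTCCCGC, TTTGGCGC and TTCCCGCC; the first and the last of these overlap in the longer run TTTCCCGCC. At least 1 word was present in 27 of the 52 genes (51.9%), in 9.68% of the 8515 tested genes with a window, and in 5.5% of all 27305 genes with one. The word CCAAT was present in 53.8% of the 52 and in 44% of the tested genes with a window. Stretches are shown for 4 genes that were higher in the shPHF8 libraries and hold a word, and for MCM3 and DUT, which hold 2 or more words and whose groups overlapped. They run 5′ to 3′ along the gene's strand, with E2F words in capitals.
MCM6, chr2:135876509-135876608, minus strand: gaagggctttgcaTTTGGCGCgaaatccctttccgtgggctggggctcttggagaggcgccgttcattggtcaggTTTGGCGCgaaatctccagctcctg
MCM7, chr7:100101543-100101602, minus strand: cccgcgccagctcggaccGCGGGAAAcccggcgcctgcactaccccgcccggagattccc
GMNN, chr6:24775303-24775362, plus strand: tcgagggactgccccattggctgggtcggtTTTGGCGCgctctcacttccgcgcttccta
CLSPN, chr1:35769970-35770038, minus strand: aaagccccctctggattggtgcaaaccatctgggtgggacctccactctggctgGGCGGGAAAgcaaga
MCM3, chr6:52284743-52284932, minus strand: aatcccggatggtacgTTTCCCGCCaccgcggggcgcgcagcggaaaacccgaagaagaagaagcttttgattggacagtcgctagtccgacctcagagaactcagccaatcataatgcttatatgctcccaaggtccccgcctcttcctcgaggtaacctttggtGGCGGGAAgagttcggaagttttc
DUT, chr15:48332127-48332196, plus strand: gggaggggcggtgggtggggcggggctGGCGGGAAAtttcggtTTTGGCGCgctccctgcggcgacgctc
The difference between genes with and without a word was not tested. The 27 genes with a word had a median log2 fold change of 0.22, with 7 at an unadjusted limma p under 0.05, and the 25 without had a median of 0.18, with 6. RRM2 and TK1, both higher in the shPHF8 libraries, held none of the 3 words in their windows. A match is only a run of letters and no site was measured here.

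The MCM family held the largest difference, in MCM6. MCM2 to MCM7 form the hexameric replicative helicase. MCM6, 1 of its subunits, had 245 and 256 TPM in the shPHF8 libraries, against 115 and 90.6 TPM in the shControl libraries. Every shPHF8 library was above every shControl library by over 2-fold. The difference came to 1.28 ± 0.14 on the log2 scale (limma with Benjamini-Hochberg adjusted p = 0.0691). Its 95% interval spanned 0.91 to 1.66, and leaving out 1 library gave values between 1.11 and 1.46. The subunit MCM7 had 359.6 and 382 TPM in the shPHF8 libraries, against 256 and 267 TPM in the shControl libraries, a difference of 0.50 ± 0.07 (adjusted p = 0.0756). MCM4 had 276 and 272 TPM in the shPHF8 libraries, against 232 and 224 TPM in the shControl libraries, a difference of 0.26 ± 0.06 (adjusted p = 0.135). In these subunits the groups did not overlap. MCM5 had 181 and 166 TPM in the shPHF8 libraries, against 151 and 109.7 TPM in the shControl libraries, also without overlap, but the controls lay far apart and the interval reached below 0.

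In the remaining helicase subunits, MCM2 and MCM3, the groups overlapped. MCM2 had 118 and 100.2 TPM in shPHF8 and 103 and 106 TPM in shControl libraries. MCM3, the most abundant subunit in the controls, had 279.8 and 352 TPM in shPHF8 and 341 and 337 TPM in shControl libraries. The lower shPHF8 value of MCM3 belonged to a library in which the transcript MCM3-006 was given 0.0527% of the gene, against 88.7% to 93.6% in the other 3 libraries; without shPHF8 replicate 2, MCM3 was lower at an unadjusted limma p under 0.05. MCM8, a related helicase of homologous recombination, had 50.5 and 54.4 TPM in shPHF8 and 46.8 and 42.9 TPM in shControl libraries, without overlap. MCM10, which helps activate the helicase, had 54.8 and 58.9 TPM in shPHF8 and 54.3 and 54.9 TPM in shControl libraries, with overlap. As a share of the summed TPM of MCM2 to MCM7, which does not depend on the library total, MCM6 took 16.8% in both shPHF8 libraries, against 9.63% and 7.99% in the shControl libraries. The share of MCM3 was 19.2% and 23% in shPHF8, against 28.4% and 29.7% in shControl libraries, and that of MCM2 8.1% and 6.56% in shPHF8, against 8.59% and 9.38% in shControl libraries. MCM4 took 18.9% and 17.8% in shPHF8 libraries, against 19.4% and 19.8% in shControl libraries.

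**Figure D2:**
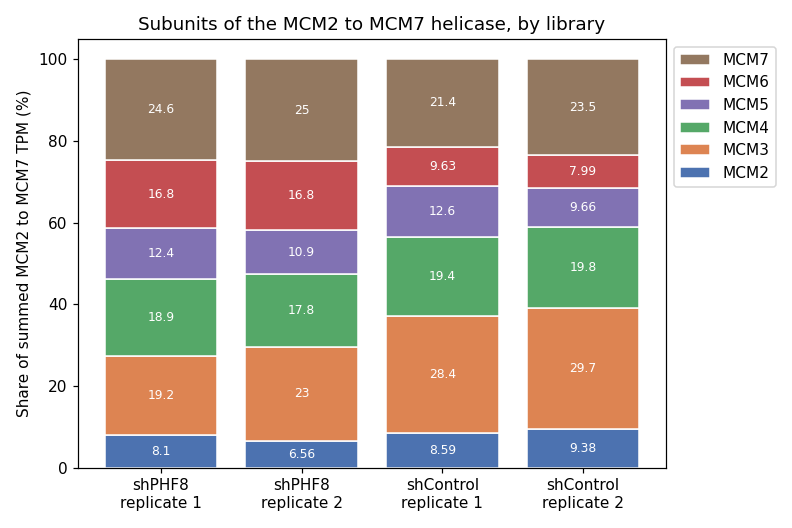
Share of the summed MCM2 to MCM7 TPM taken by each subunit (y axis, percent) in each of the 4 libraries (x axis), with shPHF8 on the left. The MCM6 band is 16.8% in both shPHF8 libraries, against 9.63% and 7.99% in shControl libraries. The MCM3 band is narrower in shPHF8 libraries, while the TPM of MCM3 overlapped between the groups.

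Among the origin licensing genes, geminin was higher and the ORC subunits went both ways. The median of the 9 genes was 0.14. GMNN, the inhibitor of CDT1, had 159 and 149.8 TPM in the shPHF8 libraries, against 117 and 129 TPM in the shControl libraries, without overlap and with a log2 fold change of 0.33 ± 0.09 (limma with Benjamini-Hochberg adjusted p = 0.158). Its partner CDT1 had 159 and 148 TPM in the shPHF8 libraries, against 138 and 139.9 TPM in the shControl libraries, a difference of 0.14 ± 0.08. CDT1 per GMNN was 1.00 and 0.985 in shPHF8 libraries, against 1.18 and 1.09 in shControl libraries, so the ratio was lower in both shPHF8 libraries. CDC6, the ATPase that works with ORC, had 84.4 and 76.3 TPM in shPHF8 and 76.2 and 66.1 TPM in shControl libraries.
The ORC subunits bind origins as a complex. ORC6 had 26 and 22.4 TPM in the shPHF8 libraries, against 14 and 21.1 TPM in the shControl libraries; the highest control lay just below the lowest shPHF8 value, and the log2 fold change of 0.47 ± 0.24 ran from 0.19 to 0.75 when 1 library was left out. ORC3 had 121 and 118 TPM in shPHF8 and 109.9 and 105 TPM in shControl libraries, also without overlap. ORC4 and ORC5 were lower in both shPHF8 libraries. ORC4 had 25.3 and 29.4 TPM in the shPHF8 libraries, against 31.8 and 34 TPM in the shControl libraries, a difference of -0.26 ± 0.13, and ORC5 87.6 and 95.6 TPM in the shPHF8 libraries, against 108 and 98.2 TPM in the shControl libraries, a difference of -0.17 ± 0.10. ORC1 had 126 and 117 TPM in shPHF8 and 121 and 120.3 TPM in shControl libraries and ORC2 46.4 and 50.6 TPM in shPHF8 and 48.2 and 49.4 TPM in shControl libraries; both overlapped, and their intervals ran from -0.21 to 0.22 and from -0.29 to 0.27.

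Of 12 genes of origin firing and fork coordination, 9 were higher without overlap and 1 was lower, against 26% and 29.3% of all genes tested. CLSPN encodes claspin, a fork protein that also carries the checkpoint signal to CHK1. It had 103 and 109.5 TPM in the shPHF8 libraries, against 77.4 and 80.0 TPM in the shControl libraries, a log2 fold change of 0.42 ± 0.09 (limma with Benjamini-Hochberg adjusted p = 0.111). WDHD1, which links the helicase to polymerase alpha, had 57.8 and 60.1 TPM in the shPHF8 libraries, against 47.8 and 40.9 TPM in the shControl libraries, a difference of 0.41 ± 0.12. TOPBP1, needed for loading of CDC45 and for ATR activation, had 104 and 104 TPM in shPHF8 and 95 and 85.4 TPM in shControl libraries. In all 3 the groups stood apart, by the most in CLSPN and WDHD1.
GINS joins the helicase as a complex of 4 subunits, which went both ways. GINS4 had 47.9 and 43.8 TPM in the shPHF8 libraries, against 19.1 and 32 TPM in the shControl libraries, a difference of 0.86 ± 0.27 (limma with Benjamini-Hochberg adjusted p = 0.192), but its controls were far apart and the value ran from 0.50 without shControl replicate 1 to 1.22 without shControl replicate 2. GINS2 had 83.4 and 79.6 TPM in shPHF8 and 71.2 and 63.4 TPM in shControl libraries, and GINS3 40.6 and 46.9 TPM in shPHF8 and 35.8 and 32.7 TPM in shControl libraries, both without overlap. GINS1 went the other way, with 31.8 and 31.2 TPM in the shPHF8 libraries, against 38.2 and 38.1 TPM in the shControl libraries, a difference of -0.27 ± 0.10 and a 95% confidence interval from -0.55 to 0.01.
CDC45, the helicase cofactor and the second most abundant of the 59 genes, had 405 and 385 TPM in shPHF8 and 378 and 305 TPM in shControl libraries. CDC7 had 99.9 and 96.3 TPM in shPHF8 and 93 and 83.4 TPM in shControl libraries, without overlap, and its activating partner DBF4 15.6 and 25.2 TPM in shPHF8 and 8.21 and 22.3 TPM in shControl libraries, where the libraries of each group differed more than the groups. DBF4 was the least abundant of the 59 genes. Of the E cyclins, CCNE1 had 44.5 and 33 TPM in shPHF8 and 39.8 and 34.1 TPM in shControl libraries, which overlap, and CCNE2 31.1 and 34.9 TPM in shPHF8 and 28.7 and 26.8 TPM in shControl libraries, which do not. CCNE2 per CCNE1 was 0.699 and 1.06 in shPHF8 libraries, against 0.72 and 0.784 in shControl libraries, a ratio that overlapped between groups.

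Among polymerases and primase, POLD3 differed most. POLD3, an accessory subunit of polymerase delta, had 36.1 and 35.9 TPM in the shPHF8 libraries, against 23.1 and 20.1 TPM in the shControl libraries, with a log2 fold change of 0.71 ± 0.13 (limma with Benjamini-Hochberg adjusted p = 0.103) and a 95% interval of 0.37 to 1.06. POLD2, another accessory subunit, had 139 and 144 TPM in the shPHF8 libraries, against 117 and 115 TPM in the shControl libraries, a difference of 0.29 ± 0.07. The groups did not overlap in either. The catalytic subunit POLD1 had 130.2 and 92 TPM in shPHF8 and 111 and 94.8 TPM in shControl libraries, where the groups overlapped.
In the polymerase alpha and primase complex, which lays down primers, the accessory subunit POLA2 had 43.5 and 40.1 TPM in the shPHF8 libraries, against 31.5 and 32.5 TPM in the shControl libraries, a difference of 0.37 ± 0.11. PRIM2 had 42.6 and 42.2 TPM in shPHF8 and 38.2 and 34.9 TPM in shControl libraries, without overlap. The catalytic POLA1 had 67.2 and 71.1 TPM in shPHF8 and 67.8 and 58.2 TPM in shControl libraries and the primase subunit PRIM1 115 and 174 TPM in shPHF8 and 167 and 78.6 TPM in shControl libraries; both overlapped, and PRIM1 had a 95% confidence interval from -0.87 to 1.48. In polymerase epsilon, which copies the leading strand, POLE had 71.5 and 78.3 TPM in shPHF8 and 71.2 and 63 TPM in shControl libraries, POLE2 56.3 and 52.1 TPM in shPHF8 and 37.8 and 48.5 TPM in shControl libraries and the histone-fold subunit POLE3 142 and 118 TPM in shPHF8 and 165 and 122 TPM in shControl libraries. POLE and POLE2 did not overlap between groups, and POLE3 did.

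The clamp loader held the largest differences among the 11 genes of clamp, loader, RPA and Okazaki joining, while the clamp itself was nearly level. RFC1 to RFC5 load PCNA onto DNA. RFC2 had 103 and 102 TPM in the shPHF8 libraries, against 75.5 and 64.7 TPM in the shControl libraries, a log2 fold change of 0.55 ± 0.11 (limma with Benjamini-Hochberg adjusted p = 0.111). Its listed transcript RFC2-012 held 20.2 and 20.1 TPM of this in the shPHF8 libraries, against 0.226 and 0.182 TPM in the shControl libraries. With only the most abundant transcript of each gene, the difference of RFC2 was 0.38. RFC1, the large subunit, had 97.9 and 106 TPM in the shPHF8 libraries, against 77.6 and 73.9 TPM in the shControl libraries, a difference of 0.43 ± 0.09 (adjusted p = 0.121). All 5 loader genes were higher in both shPHF8 libraries, as were 26% of all genes tested. In RFC3 and RFC4 the lower shPHF8 value lay just above the higher control. RFC3 had 123 and 122 TPM in shPHF8 and 119 and 97.6 TPM in shControl libraries, RFC4 235 and 210.1 TPM in shPHF8 and 205 and 178 TPM in shControl libraries and RFC5 107 and 109 TPM in shPHF8 and 99.9 and 91 TPM in shControl libraries. PCNA, the most abundant of the 59 genes, had 413 and 401 TPM in shPHF8 and 402 and 383 TPM in shControl libraries, with a difference of 0.05 ± 0.06 and an interval from -0.11 to 0.22.
RPA coats single-stranded DNA as a trimer. RPA1 had 74.3 and 80.6 TPM in shPHF8 and 71.9 and 64.6 TPM in shControl libraries and RPA3 84.7 and 71.7 TPM in shPHF8 and 70.0 and 61.2 TPM in shControl libraries, both higher without overlap, while RPA2 was lower, with 239 and 223 TPM in the shPHF8 libraries, against 249 and 246 TPM in the shControl libraries. FEN1, the flap nuclease of Okazaki fragments, had 239 and 230.3 TPM in shPHF8 and 211 and 226 TPM in shControl libraries, without overlap, and the ligase LIG1 33.3 and 40.7 TPM in shPHF8 and 36.3 and 21.7 TPM in shControl libraries, with overlap.

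The nucleotide supply genes had the highest median of the 7 roles, 0.47 over 5 genes. RRM1 and RRM2 form ribonucleotide reductase, which makes deoxynucleotides. RRM2, its small subunit, had 159 and 144 TPM in the shPHF8 libraries, against 106 and 109 TPM in the shControl libraries, a log2 fold change of 0.49 ± 0.09 (limma with Benjamini-Hochberg adjusted p = 0.102). RRM1, the large subunit, had 207 and 221 TPM in the shPHF8 libraries, against 162 and 102 TPM in the shControl libraries, a difference of 0.73 ± 0.24 that ran from 0.40 without shControl replicate 2 to 1.05 without shControl replicate 1. Both subunits were higher in both shPHF8 libraries, and RRM2 per RRM1 overlapped between groups, at 0.771 and 0.654 in shPHF8 libraries, against 0.655 and 1.06 in shControl libraries. The thymidine kinase TK1 had 142 and 153 TPM in the shPHF8 libraries, against 113 and 99.1 TPM in the shControl libraries, a difference of 0.47 ± 0.10 (limma with Benjamini-Hochberg adjusted p = 0.124). Thymidylate synthase, TYMS, had 293 and 356 TPM in shPHF8 and 267 and 275 TPM in shControl libraries, without overlap. The dUTP hydrolase DUT had 143 and 128 TPM in shPHF8 and 141 and 128 TPM in shControl libraries, with the groups interleaved.

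Of the 4 chromatin assembly and histone mRNA genes, 3 were higher without overlap, against 26% of all genes tested. CHAF1A, the large subunit of the chromatin assembly factor that places histones behind the fork, had 126 and 137 TPM in the shPHF8 libraries, against 102 and 106 TPM in the shControl libraries, a log2 fold change of 0.33 ± 0.08 (limma with Benjamini-Hochberg adjusted p = 0.151). CHAF1B, its partner, had 47.7 and 47.2 TPM in shPHF8 and 42.5 and 41.4 TPM in shControl libraries. UHRF1, which brings DNA methylation to new strands, had 83.4 and 65.1 TPM in shPHF8 and 64.1 and 62 TPM in shControl libraries, with the lower shPHF8 value just above the controls; its difference was 0.05 without shPHF8 replicate 1. SLBP, which binds histone mRNA, had 151 and 223 TPM in shPHF8 and 152 and 198 TPM in shControl libraries, with overlap.

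**Figure D3:**
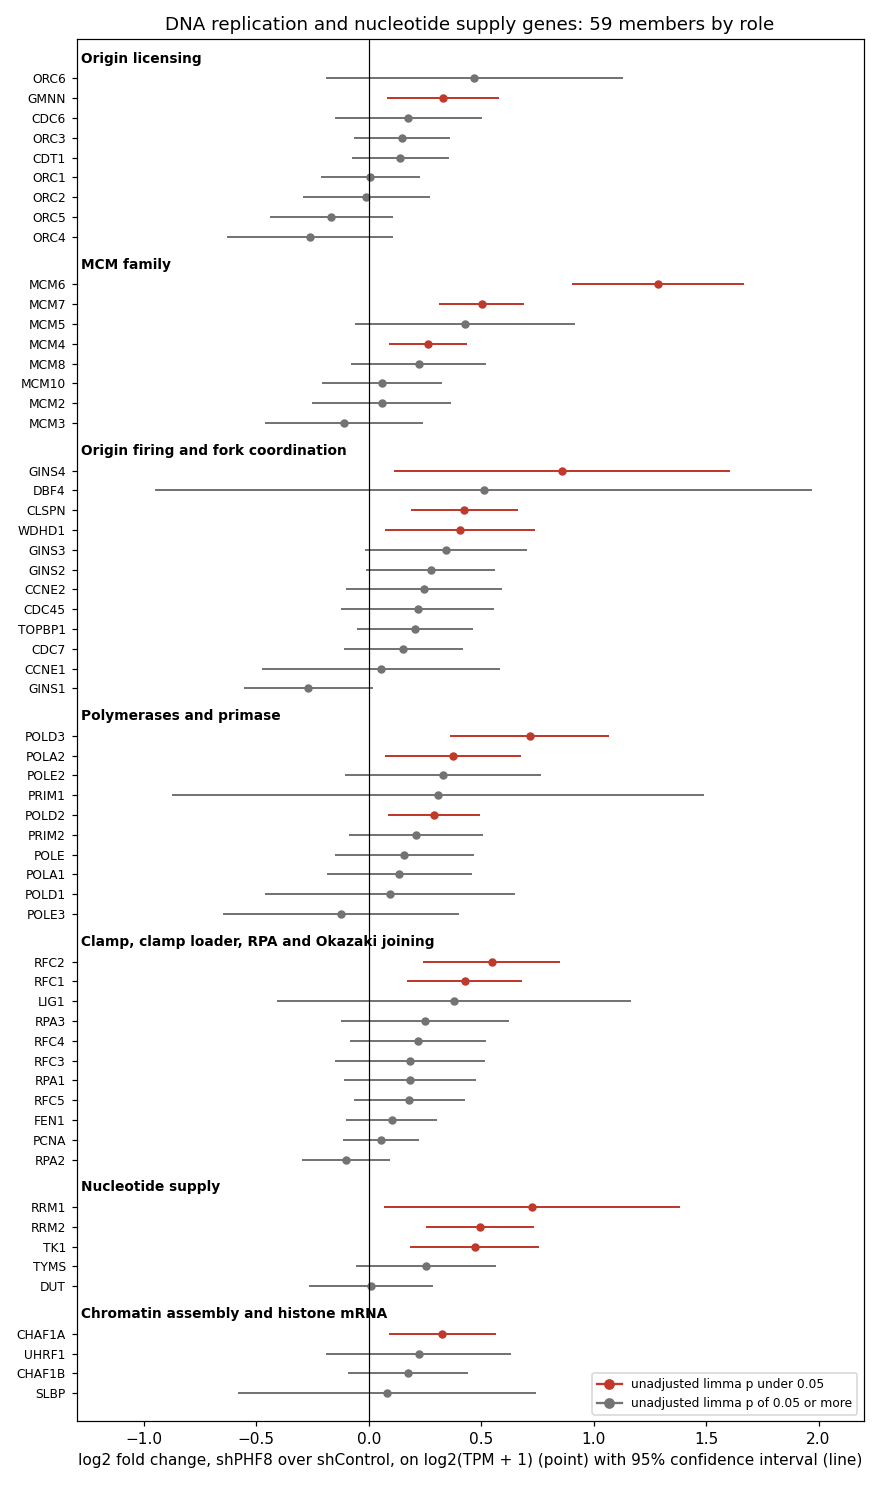
Log2 fold change of shPHF8 over shControl (x axis, log2(TPM + 1) scale) with its 95% confidence interval for the 59 genes (y axis), grouped by role, in red where the unadjusted limma p was under 0.05. All 16 red points lie right of 0, MCM6 farthest at 1.28, and the lowest point is GINS1 at -0.27.

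**Figure D4:**
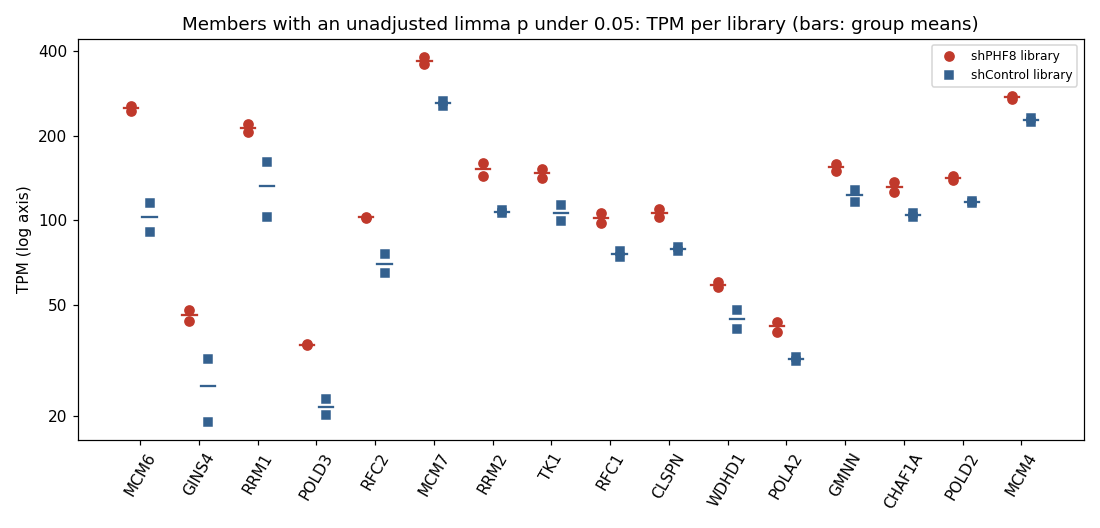
TPM (y axis, log scale) of the 16 genes with an unadjusted limma p under 0.05 in each library, with shPHF8 as red circles left of shControl as blue squares and bars at the group means. In every one of the 16 both red points lie above both blue points, and the controls of GINS4 and RRM1 are the widest apart.

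The table lists transcripts, and the transcripts of CLSPN differed far more than the gene. The 59 genes had 203 listed transcripts, of which 195 had a mean of at least 1 TPM. Limma over all 30266 transcripts at that level, with Benjamini-Hochberg adjustment, called 0 of the 195, against 0.0033% of all transcripts in the higher direction. Both shPHF8 libraries lay above both controls in 66 of the 195, against 21% of all transcripts tested, and below both in 22, against 22.2%. At an unadjusted limma p under 0.05, 15 of them (7.69%) were higher and 3 (1.54%) lower, against 4.91% and 5.38% of all transcripts tested. CLSPN-005 (ENST00000318121) had 85.8 and 90.8 TPM in the shPHF8 libraries, against 10.1 and 10.5 TPM in the shControl libraries, a log2 fold change of 2.98 ± 0.14 (SE; limma with Benjamini-Hochberg adjusted p = 0.0802). CLSPN-001 (ENST00000251195) had 8.06 and 7.42 TPM in the shPHF8 libraries, against 42 and 48.1 TPM in the shControl libraries, a difference of -2.40 ± 0.18 (adjusted p = 0.104). The order of the 2 transcripts was opposite in the 2 groups, with replicates close together in both. Of the gene's TPM, CLSPN-005 held 83.6 and 82.9% in the shPHF8 libraries, against 13 and 13.1% in the shControl libraries, and CLSPN-001 held 7.86 and 6.78% in the shPHF8 libraries, against 54.3 and 60.2% in the shControl libraries. The smaller CLSPN-004 held 2.75 and 0% in the shPHF8 libraries, against 12.1 and 12.1% in the shControl libraries, and CLSPN-003 5.79 and 10.3% in the shPHF8 libraries, against 20.6 and 14.6% in the shControl libraries.

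In GENCODE release 29 (GRCh38) CLSPN-005 and CLSPN-001 each have 25 exons on the minus strand of chromosome 1 and share 23 of them exactly. They differ in the last exon, and by 39 bases in the length of the first. The last exon of CLSPN-005 has 202 bases, at chr1:35736405-35736606, and that of CLSPN-001 has 763 bases and lies farther downstream, at chr1:35720218-35720980. CLSPN-003 and CLSPN-004 end in the same last exon as CLSPN-005. The coding sequence therefore ends differently, with 4017 coding bases in CLSPN-005 and 3996 in CLSPN-001. The ends of both coding sequences are shown, with 30 bases of the shared exon before in lower case and the coding part of the last exon, without the stop codon, in capitals.
CLSPN-005, chr1:35736499-35736606, minus strand: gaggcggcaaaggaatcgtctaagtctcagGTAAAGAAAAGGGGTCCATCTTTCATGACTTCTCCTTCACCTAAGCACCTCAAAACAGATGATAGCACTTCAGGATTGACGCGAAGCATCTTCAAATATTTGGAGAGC
CLSPN-001, chr1:35720894-35720980, minus strand: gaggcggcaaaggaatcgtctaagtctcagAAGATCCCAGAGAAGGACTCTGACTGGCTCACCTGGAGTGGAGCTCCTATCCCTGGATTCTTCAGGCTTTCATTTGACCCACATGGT
The coordinates are those of the capitals and belong to GRCh38, whereas the submitters' processing notes name hg19.

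**Figure D5:**
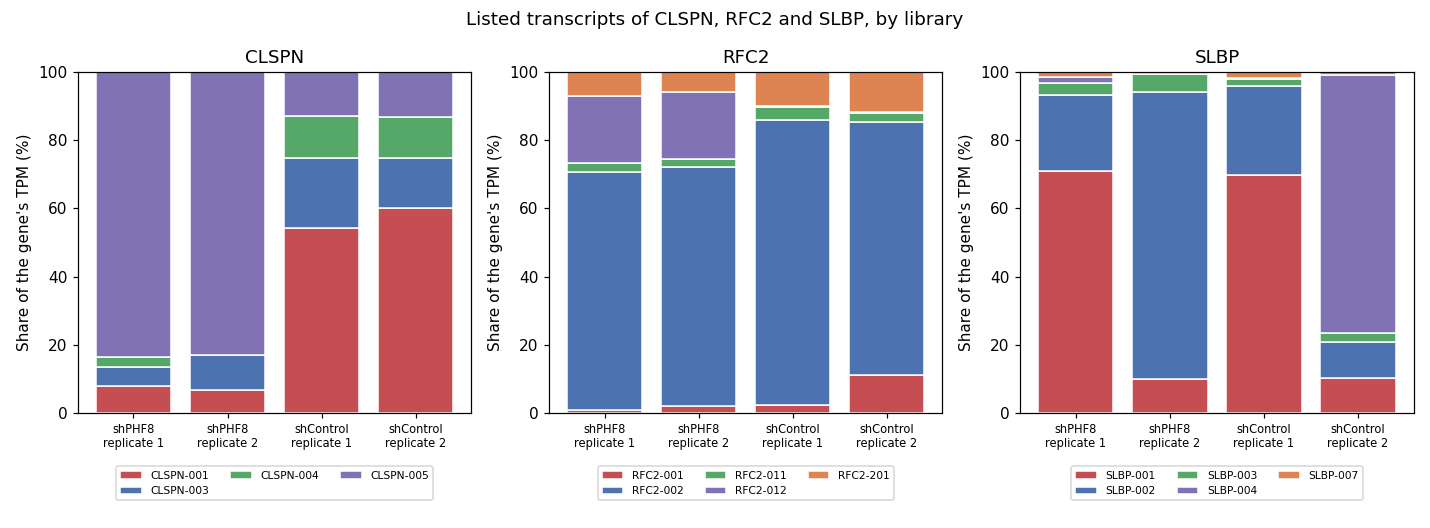
Share of a gene's TPM (y axis, percent) given to each of its listed transcripts in each library (x axis, shPHF8 on the left) for CLSPN, RFC2 and SLBP. CLSPN-005 holds 83.6 and 82.9% in the shPHF8 libraries, against 13 and 13.1% in the shControl libraries, RFC2-012 appears in shPHF8 libraries, and the transcripts of SLBP change places between libraries of the same group.

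For each of the 53 genes with 2 or more transcripts, the shift between libraries was taken as the percentage of the gene's TPM that would have to move between transcripts to turn one profile into the other. Every shift between a shPHF8 and a shControl library exceeded both shifts within groups in 4 of the 53 genes (7.55%), CLSPN, RFC2, CDC6 and POLA2, against 10.9% of the 7717 tested genes with 2 or more transcripts. The share among the 53 genes was thus no higher than among all genes. The shift between groups was 70.2% for CLSPN, against 4.49% within shPHF8 and 5.97% within shControl. It was 19.3% for RFC2, against 1.44% and 10.5%. RFC2-012 (ENST00000485545), an 847-base model of 5 exons whose coding start is not annotated, had 20.2 and 20.1 TPM in the shPHF8 libraries, against 0.226 and 0.182 TPM in the shControl libraries. RFC2-002, of 11 exons, had 71.7 and 71.7 TPM in the shPHF8 libraries, against 63 and 47.9 TPM in the shControl libraries, and both models were higher in both shPHF8 libraries. In CDC6 the shift between groups was 7.13% and in POLA2 6.72%.
Other genes showed how uncertain the division between transcripts was. SLBP-001 held 70.8 and 10.1% in the shPHF8 libraries, against 69.8 and 10.4% in the shControl libraries, and GINS4-201 10.8 and 86.3% in the shPHF8 libraries, against 87 and 11.4% in the shControl libraries. In both genes, the libraries of each group differed widely from each other. The transcript profiles of CCNE2 were 20.7% apart within shPHF8 and 6.27% apart within shControl, and CCNE2-001 had 11.2 and 5.38 TPM in the shPHF8 libraries, against 0.311 and 0.226 TPM in the shControl libraries. The 10 transcripts with the smallest p also included MCM6-001, MCM7-001 and MCM4-001, each the main transcript of its gene in all 4 libraries. RFC4-201, a minor transcript of a clamp loader gene that was itself higher, had 19.5 and 23.4 TPM in the shPHF8 libraries, against 37.5 and 42.7 TPM in the shControl libraries, a difference of -0.87 ± 0.18 (SE). Minor transcripts above both controls were GMNN-004 with 11.3 and 15.7 TPM in the shPHF8 libraries, against 5.75 and 3.24 TPM in the shControl libraries and POLA2-008 with 4.01 and 3.56 TPM in the shPHF8 libraries, against 1.07 and 0.418 TPM in the shControl libraries. Over the 53 genes the median shift was 6.42% within shPHF8, 7.65% within shControl and 8.38% between groups.

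Further genes of the same processes, listed by function, went both ways, and none of those named here passed the test over all genes. Of 35 other replication and fork genes, 9 were higher and 2 lower at an unadjusted limma p under 0.05, set against the 9.9% and 12.1% of all genes given above, with a median log2 fold change of 0.10. DTL, whose ligase degrades CDT1 in S phase, had 95.9 and 85.4 TPM in the shPHF8 libraries, against 62.5 and 62.7 TPM in the shControl libraries. TICRR, which helps recruit CDC45, had 28.5 and 31.2 TPM in the shPHF8 libraries, against 21.3 and 20.5 TPM in the shControl libraries, and the cell cycle phosphatase CDC25A 92.5 and 92.2 TPM in the shPHF8 libraries, against 75.1 and 73.4 TPM in the shControl libraries. CHTF8, part of an alternative clamp loader, was lower in both shPHF8 libraries, with 32.6 and 36.2 TPM in the shPHF8 libraries, against 50.7 and 58.2 TPM in the shControl libraries. Of 33 other nucleotide synthesis genes 6 were higher and 3 lower, with a median of 0.02. The mitochondrial folate enzyme MTHFD2 had 508 and 543 TPM in the shPHF8 libraries, against 369 and 316 TPM in the shControl libraries. The purine enzyme ADSS had 133 and 137 TPM in the shPHF8 libraries, against 105 and 101 TPM in the shControl libraries, and the nucleoside diphosphate kinase NME1 534 and 451 TPM in the shPHF8 libraries, against 246 and 324 TPM in the shControl libraries. Each was higher in both shPHF8 libraries; NME1 has a close copy in the genome, so its value is less certain. Of 20 mitotic genes 4 were higher and 1 lower, with a median of 0.14. BUB1, a spindle checkpoint kinase, had 61.7 and 62.9 TPM in the shPHF8 libraries, against 49.9 and 51.1 TPM in the shControl libraries. The kinetochore genes CENPE and CENPF had 86.3 and 74.5 TPM in shPHF8 and 64.7 and 51.3 TPM in shControl libraries, and 137 and 136 TPM in shPHF8 and 121 and 109 TPM in shControl libraries. AURKB, a mitotic kinase, was lower in both shPHF8 libraries, with 47.8 and 48.1 TPM in the shPHF8 libraries, against 61.3 and 65.8 TPM in the shControl libraries. The summed mitotic genes were at 2531 and 2564 TPM in the shPHF8 libraries, against 2468 and 2338 TPM in the shControl libraries, a ratio of group sums of 1.06, against 1.17 for the 59 replication and nucleotide genes.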

How the data were processed

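The authors deposited 1 table with a TPM value per transcript and library, per the file headers; HISAT2 2.0.4 and StringTie 1.2.3 with build hg19 are named, per the submitters' processing notes, while annotation and strandedness are not given there, so reads of overlapping antisense genes cannot be told apart. A further 4 deposited columns, which name no unit and are treated as signal, were in each library a constant multiple of TPM at the precision checked and were not used. Each TPM column sums to 1000000, so a value is a share of the transcripts listed, and depth is unknown. TPM were summed per gene name and tested as log2(TPM + 1), keeping genes whose mean reached 1 TPM, with limma 3.58.1 in R 4.3.3 (trend, two-sided, Benjamini-Hochberg adjustment over all genes, threshold 0.05), 2 shPHF8 against 2 shControl libraries. Fold changes on this scale understate those of low genes. Per gene, 2 residual and 2.16 prior degrees of freedom were available. An exact permutation test of 2 against 2 cannot go below 0.333. Transcripts were fitted alike. The fit was tested on simulated data. The 59 genes, their roles and the other lists were chosen with earlier results of these data known, so no list was tested, and each is described by counts and medians. Genes were detailed if their unadjusted p was under 0.05 or among the 3 smallest of their role; the others follow with their values. Of each further list the 4 smallest p were named, except 1 gene that is not reported here, and of transcripts the 10 smallest. The transcripts of SLBP, MCM3 and GINS4, the other transcripts of CLSPN and RFC2, and the promoters printed were picked after their values were seen. Alternatives changed the pseudocount (0.1), filter, scaling, trend, replicate block, gene summary and libraries. Python 3.11.15, pandas 2.3.3 and matplotlib 3.10.9 were used.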

Additional observations from a re-analysis of the deposited data

How the results depend on the processing

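Under 13 alternatives the median log2 fold change of the 59 genes kept its sign, from 0.15 without shControl replicate 2 to 0.26 without shControl replicate 1. The number higher at an unadjusted limma p under 0.05 ran from 7 to 19 when 1 library was left out, which leaves a lone library assumed to vary like the other group, and was 8 with only the most abundant transcript of each gene; the number lower was 0 to 1. The number below both controls ran from 4 to 9 when 1 library was left out, with 9 without shPHF8 replicate 1. Groups separate more easily with fewer libraries. In that setting the remaining shPHF8 library lay above both controls in 36.8% of all genes, against 26% for both shPHF8 libraries in the main fit. The matching share of all genes below both controls is not given, so the rise to 9 cannot be ascribed to the 59 genes. Without shControl replicate 2, the median of the polymerase genes was 0.11, against 0.25 with all libraries, and that of the clamp and RPA genes 0.11, against 0.18; without shControl replicate 1 the clamp and RPA median was 0.32. With the most abundant transcript, 1 of the 59 (CLSPN, log2 fold change 2.98) passed over all genes, but CLSPN-005 was chosen there through its high shPHF8 values, so this is no separate support; the total was 10 higher and 11 lower, while the polymerase median was 0.03, the nucleotide median 0.75 and the chromatin median 0.72. Over all genes, limma with Benjamini-Hochberg adjustment called 17 higher and 20 lower under quantile normalization, and 17 higher and 18 lower with a mean of at least 15 TPM, an alternative chosen after seeing the data. Transcripts called, 1 higher and 0 lower, became 2 and 2 with a mean of at least 5 TPM or quantile normalization, 0 higher with no filter on low TPM, without trend or with the replicate block, and 0 when any 1 library was left out. The replicate numbers share only a number: deviations of same-numbered libraries correlated at -0.03. With the replicate block 16 of the 59 (27.1%) were higher by unadjusted limma p under 0.05 and 0 lower, against 8.09% and 9.67% of all genes. The sign of the log2 fold change turned in 15 of the 59 genes under at least 1 alternative, 0 of them among the 16 with an unadjusted p under 0.05. With the most abundant transcript it turned in 6, among them POLE2 (-0.50), CCNE2 (-0.25) and ORC3 (-0.07), and without 1 library in 2 to 7. Depth is unknown, so the limit that counting sets on low transcripts cannot be given. The cause of each move was not tested.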
